A study of Homo sapiens with 6 samples.

Results

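The genes described here are the heat shock proteins and protein-folding chaperones of Huh7, an established line of human liver cancer cells, 24 h after GABA (gamma-aminobutyric acid) was added to the culture. They were chosen by name: HSP, DNAJ, CCT, PDIA, BAG, FKBP and PPI families, SEL1L, EDEM, ERO1 and P4H genes, and 13 single genes such as CALR and XBP1. Of the 5187 genes listed in the files, 52 protein-coding genes met this rule, and all 52 passed the filter on low counts. GENCODE release 29 annotates 154 protein-coding genes with such names, so 102 of them were not analysed here. RNA was sequenced from 3 GABA-treated and 3 control cultures, named as biological replicates 1, 2 and 3 in each group. The labels give neither the dose of GABA nor a vehicle for the controls, and how the cultures were kept apart is not stated. The p-values therefore measure the spread between these libraries. The series concerns GABA and metastasis in liver cancer, and the comparison asked what adding GABA to this line changed.

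Chaperones bind unfolded stretches of a protein and keep them from aggregating while the chain folds. HSP70 proteins do this in cycles of ATP hydrolysis, which J proteins (the DNAJ family) start and nucleotide exchange factors such as BAG proteins end. HSP90 acts later, on clients such as kinases and steroid receptors, and the barrel-shaped TRiC/CCT chaperonin folds actin and tubulin. In the endoplasmic reticulum (ER), which is large in secreting cells such as hepatocytes, the HSP70 protein BiP (HSPA5), the lectins calnexin and calreticulin and the protein disulfide isomerases fold secreted proteins. When unfolded chains build up there, the unfolded protein response, through the sensors ATF6, IRE1 (ERN1) and PERK, raises the amounts of these genes. In the cytosol, the transcription factor HSF1 does so after heat and other stress.

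The files list mostly genes that differed in this same comparison. Over the 4981 genes tested, file position and p-value had a Spearman correlation of 0.931, and no absolute log2 fold change was below 0.12. Counts of changed genes therefore describe a preselected set. The adjusted p-values of single genes are likewise adjusted over this set only. They do not limit false calls over all genes of the cell, and fold changes of genes listed for differing can be too large. In edgeR's quasi-likelihood test with Benjamini-Hochberg adjustment, 98.7% of tested genes passed 0.05, with 47.6% higher and 51.2% lower in GABA cells. Totals on the listed genes were 7719243 to 8392945 counts in GABA libraries and 7702666 to 8235028 in control libraries. Values are given in CPM, which here are counts per 1e+06 counts on the listed genes after TMM scaling, and not per whole library. Control replicate 3 stood apart from the other control libraries on the second principal component, and mitochondrially encoded transcripts held 9.11% of its counts, against 6.66% to 7.74% in the other 5 libraries. Of 12 hepatocyte and Huh7 markers, only KRT8 and KRT18 are listed, and they are not particular to liver. They summed to 10061 to 11284 CPM in GABA libraries and 8574 to 11077 CPM in control libraries. As the files list mostly changed genes, a marker that is not listed may still have been expressed. Of 4 markers of kidney or cervix lines, PAX2, HOXB7 and HOXB9 are listed, and they summed to 405 to 421 CPM in GABA libraries and 345 to 352 CPM in control libraries. Of 5 fibroblast markers, PDGFRB is listed, at 18.5 to 21.1 CPM in GABA libraries and 34.7 to 47.0 CPM in control libraries. None of 7 endothelial and immune markers is listed. The labelled identity of the line is not settled by these genes, and the part of these markers in the results was not tested. In bulk RNA, fewer cells of one kind and less RNA per cell cannot be told apart.

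Of the 52 chaperone and folding genes, 35 were lower in GABA cells, 16 were higher and 1, HSPA8, did not pass. The lower genes made up 67.3%, against 51.2% of all tested genes, and the higher ones 30.8%, against 47.6%. The number of falls differed with the scaling and with single libraries. With the same TMM scaling, limma-voom called 35 lower (67.3%, against 50.1% of all tested genes). With DESeq2 size factors, edgeR called 24 lower (46.2%, against 41.2% of all tested genes). DESeq2 called 22 lower (42.3%) and 16 higher, against 39.2% and 47.6% of all tested genes. Without 1 library at a time, 21 to 35 were lower and 15 or 16 higher, with the fewest falls without GABA replicate 2 (21, or 40.4%, against 38.8% of all tested genes) and GABA replicate 3 (23, or 44.2%, against 39.2%). With DESeq2 and without GABA replicate 2 or 3, the share of falls was close to that of all tested genes. It was 48.1% without GABA replicate 1 and without control replicate 1, against 38.6% and 43.5% of all tested genes. Without control replicates 2 and 3 it was 67.3% and 63.5%, against 47.0% and 47.8%. Counts within the role groups are likewise read against a file in which nearly every gene passed. Most changes were small: the median log2 fold change was -0.20, against -0.18 for all tested genes, and the median absolute value was 0.31, against 0.40. Only 9 of the 52 genes (17.3%) reached an absolute value of 0.5, against 36.6% of all tested genes. The chaperone genes had a median level of 131 CPM, against 78.5 CPM over all tested genes. The groups did not overlap in CPM for 50 of the 52 genes, close to the 92.5% of all tested genes.

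**Figure D1:**
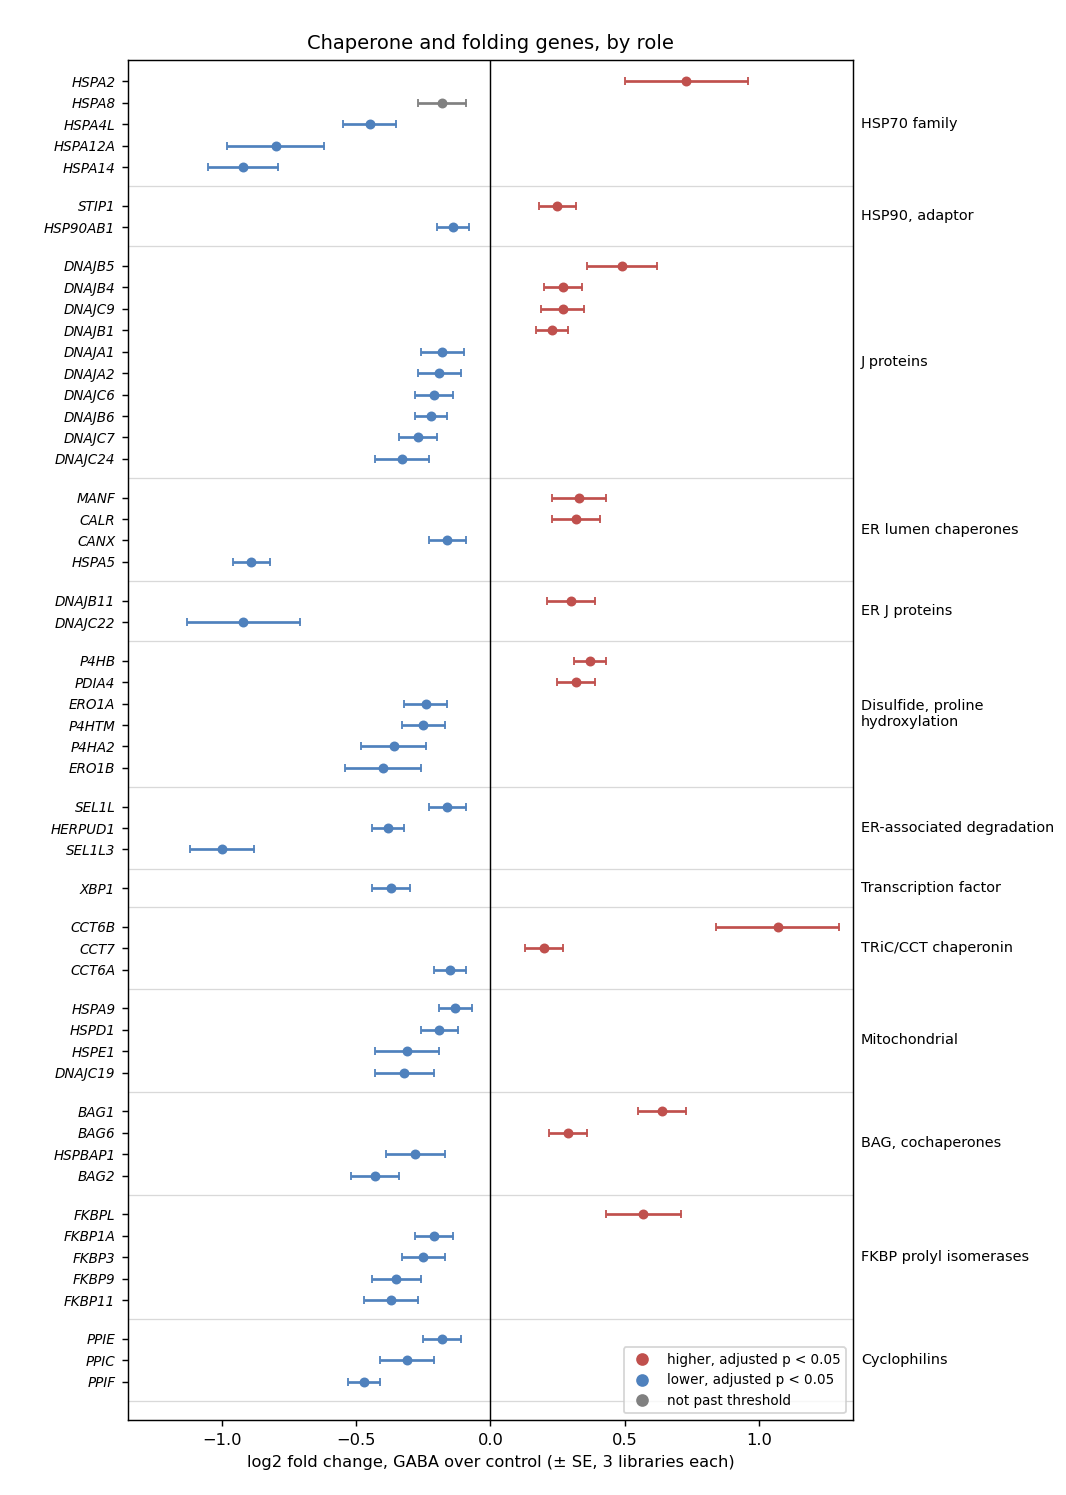
Log2 fold change of GABA over control (x axis, ± SE from the edgeR fit, 3 libraries each) for the 52 chaperone and folding genes, grouped by role (labels at right). Red points passed as higher (16 genes), blue as lower (35) and grey did not pass (HSPA8). HSPA5 at -0.89 lies apart from the other ER lumen chaperones. All 4 mitochondrial chaperones, all 3 cyclophilins and all 3 genes grouped under ER-associated degradation lie below 0, where 51.2% of all tested genes were lower. DESeq2 called 1, 2 and 2 of these genes lower, in the same order of groups.

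**Figure D2:**
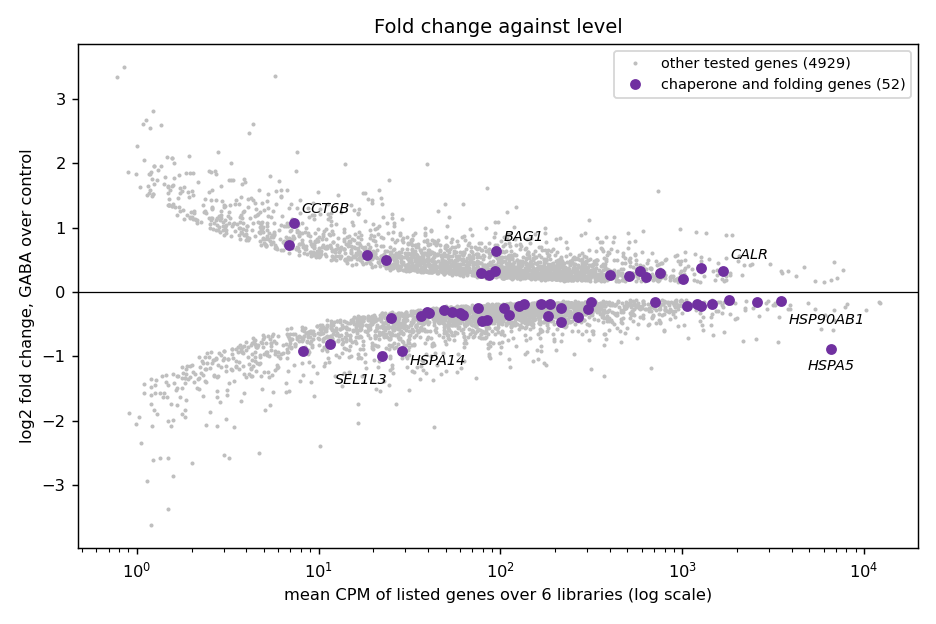
Log2 fold change (y axis) against mean CPM over the 6 libraries (x axis, log scale) for the 52 chaperone and folding genes (purple) and the other 4929 tested genes (grey). The empty band around 0 is wider at low CPM, and HSPA5 is the lowest point among genes above 1000 CPM.

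The ER chaperones moved in opposite directions, and one gene outweighed the rest. HSPA5 encodes BiP, the ER's HSP70 and the main sink for unfolded chains there (chromosome 9, 125234853 to 125241330, minus strand, GENCODE 29 on GRCh38). It had 4439, 4577 and 4766 CPM in GABA libraries, against 8060.1, 8239 and 9244 CPM in control libraries. All GABA libraries lay far below all control libraries, and the spread within either group was small beside the gap. The log2 fold change was -0.89 ± 0.07 (SE; adjusted p = 2.5e-06), a level of 0.54 times control, and -0.83 without control replicate 3. In brackets, the later values given with an adjusted p are log2 fold changes ± SE from the same edgeR test. Outside the mitochondrial genome, HSPA5 had the highest count of any listed gene in each of the 3 control libraries, and ranked 13, 12 and 10 in GABA replicates 1, 2 and 3. Among the 141 tested genes whose level averaged 1000 CPM or more, a limit set after the values were seen, its fall was the largest of 83 falls and its absolute change the third largest. Per kilobase of exon, its level was 1175 in GABA cells and 2179 in control cells (CPM per kb). That of the cytosolic HSP90 gene HSP90AB1 was 1114 in GABA cells and 1227 in control cells, so HSPA5 exceeded it by much less in GABA cells than in control cells.

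HSPA5 also carried the summed difference between the groups. The 52 genes together held 2.79%, 2.80% and 2.87% of the listed counts in GABA replicates 1, 2 and 3, against 3.25%, 3.18% and 3.29% in control replicates 1, 2 and 3. HSPA5 alone held 0.448%, 0.457% and 0.481% in GABA libraries and 0.806%, 0.826% and 0.905% in control libraries. Without it, the other 51 genes held 2.34% to 2.39% in GABA libraries and 2.36% to 2.44% in control libraries, and the groups overlapped.

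**Figure D3:**
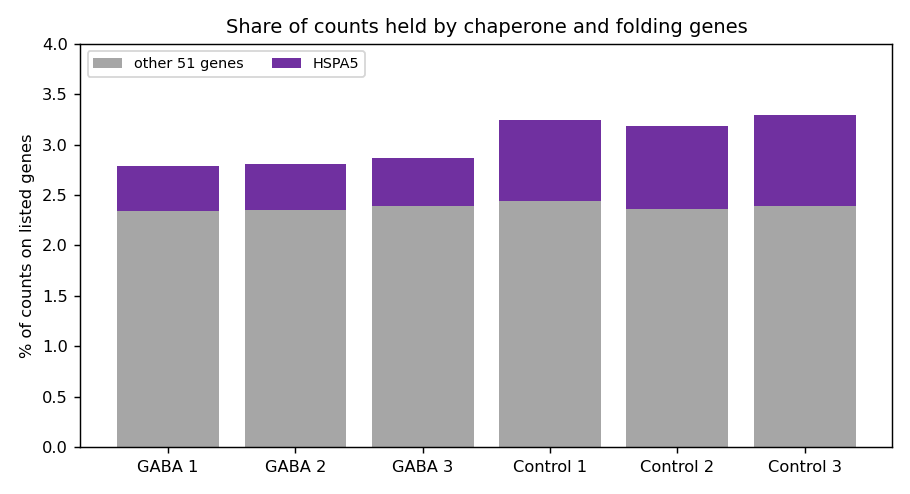
Share of the counts on listed genes (y axis, %) held by HSPA5 (purple) and by the other 51 chaperone and folding genes (grey) in each library. The purple part is 0.448% to 0.481% in GABA libraries and 0.806% to 0.905% in control libraries, while the grey part overlaps between the groups.

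Of the other 3 listed genes of the ER lumen, 2 rose and CANX fell by little. CALR, calreticulin, the soluble lectin chaperone of new glycoproteins, had 1799.5, 1808 and 1962 CPM in GABA libraries, against 1645, 1563 and 1242 CPM in control libraries. Its GABA values were all above the control values, which were themselves spread widely with the lowest in control replicate 3. The log2 fold change was 0.32 ± 0.09 (adjusted p = 0.007), and 0.21 without control replicate 3. MANF, a secreted ER protein that binds BiP, had 103, 104 and 106 CPM in GABA libraries, against 81.9, 94.1 and 72.5 CPM in control libraries, again without overlap (0.33 ± 0.10, adjusted p = 0.0077; 0.25 without control replicate 3). CANX, calnexin, the membrane-bound lectin, had 2372, 2445 and 2467 CPM in GABA libraries, against 2622, 2527 and 2963 CPM in control libraries. Its difference was small at -0.16 ± 0.07 (adjusted p = 0.042), and at -0.09 it did not pass without control replicate 3 (adjusted p = 0.071). It passed in 5 of 14 alternative settings. HSP90B1, HYOU1, HSPA13, SDF2L1 and CRELD2 were not analysed here.

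A ratio of genes within one library does not depend on the scaling. HSPA5 had 2.47, 2.53 and 2.43 counts per CALR count in GABA replicates 1, 2 and 3, against 4.90, 5.27 and 7.44 in control replicates 1, 2 and 3. Per P4HB count it had 3.20, 3.14 and 3.31 in GABA libraries, against 7.37, 7.49 and 8.30 in control libraries. Against the falling CANX the gap was smaller, with 1.87, 1.87 and 1.93 in GABA libraries and 3.07, 3.26 and 3.12 in control libraries. Within the lectin pair, CALR had 0.759, 0.739 and 0.796 counts per CANX count in GABA libraries and 0.628, 0.618 and 0.419 in control libraries, so the groups did not overlap, with control replicate 3 the lowest.

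The J proteins listed for the ER also split. DNAJB11 (ERdj3), a soluble partner of BiP, had 83.6, 83.6 and 92.8 CPM in GABA libraries, against 70.3, 75.4 and 65.9 CPM in control libraries, higher without overlap (0.30 ± 0.09, adjusted p = 0.0091). Of its exon length, 23.2% overlaps other genes, so part of its reads is uncertain. DNAJC22, a membrane J protein whose place in the ER is less certain, had 5.52, 7.11 and 4.37 CPM in GABA libraries, against 11.2, 11.4 and 9.41 CPM in control libraries and was lower (-0.92 ± 0.21, adjusted p = 0.0027). DNAJB9, DNAJC3 and DNAJC10, partners of BiP, are among the 10 annotated genes of this group that are not listed.

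Among the disulfide enzymes taken by the naming rule, the isomerases P4HB and PDIA4 rose and the oxidases ERO1A and ERO1B fell. Outside the rule, the oxidase QSOX1 rose (log2 fold change 0.48) and the ER folding enzyme TXNDC12 fell (-0.42). P4HB, protein disulfide isomerase itself and also the shared subunit of collagen prolyl 4-hydroxylase, had 1388, 1459 and 1438 CPM in GABA libraries, against 1094, 1099 and 1114 CPM in control libraries. Both groups were tight and well apart (0.37 ± 0.06, adjusted p = 2.0e-04). PDIA4 (ERp72), another isomerase, had 642, 649.7 and 664 CPM in GABA libraries, against 564, 528 and 473 CPM in control libraries (0.32 ± 0.07, adjusted p = 0.002; 0.25 without control replicate 3). ERO1A, the oxidase that recharges P4HB with disulfides, had 188, 201 and 204 CPM in GABA libraries, against 229.5, 215 and 258 CPM in control libraries and fell (-0.24 ± 0.08, adjusted p = 0.011). Its paralogue ERO1B, known from the pancreas, averaged 21.7 ± 3.31 CPM in GABA cells and 28.7 ± 2.5 CPM in control cells (SD, n = 3 each), a log2 fold change of -0.40. The catalytic collagen prolyl 4-hydroxylase subunit P4HA2 had a log2 fold change of -0.36 and the ER membrane hydroxylase P4HTM one of -0.25. The fall of ERO1A did not pass without GABA replicate 1 (adjusted p = 0.059), and that of P4HTM likewise (adjusted p = 0.056). P4HA2 missed without GABA replicate 2 or control replicate 1, and ERO1B without GABA replicate 2.

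All 3 listed genes grouped under ER-associated degradation, which returns misfolded chains to the cytosol, were lower, as were 51.2% of all tested genes. SEL1L3 was taken into this group by its name. HERPUD1, an ER membrane protein that organises the degradation complex, had 227, 227 and 239 CPM in GABA libraries, against 309, 295 and 296 CPM in control libraries. The groups were far apart for their spread (-0.38 ± 0.06, adjusted p = 4.2e-04). SEL1L, the adaptor of the ubiquitin ligase HRD1, had 287, 303 and 309 CPM in GABA libraries, against 329, 318 and 354 CPM in control libraries and a small difference (-0.16 ± 0.07, adjusted p = 0.04), which passed in 6 of 14 alternative settings. SEL1L3, a relative of SEL1L whose own function is less clear, had the largest fall of the 52 genes, with 13.7, 15.1 and 15.7 CPM in GABA libraries, against 30.0, 29.7 and 29.9 CPM in control libraries (-1.0 ± 0.12, adjusted p = 5.0e-05). Its control values lay within 1 CPM of each other. EDEM1, EDEM2 and EDEM3, which trim the sugars of misfolded glycoproteins, are not listed. The 3 listed genes of degradation and translocation outside the naming rule split, with UBE2G2 (-0.27) and NPLOC4 (-0.14) lower and SEC61A1 (0.18) higher.

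XBP1 is the one listed gene of the sensors and transcription factors. It encodes the factor that IRE1 activates by splicing its messenger RNA, and counts per gene do not separate the spliced form. XBP1 had 159, 159.9 and 157 CPM in GABA libraries, against 195, 195 and 226 CPM in control libraries, and its 3 GABA values were within 3 CPM of each other and below every control value (-0.37 ± 0.07, adjusted p = 0.0012; -0.30 without control replicate 3). ATF6, ERN1 and HSF1 were not analysed here.

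**Figure D4:**
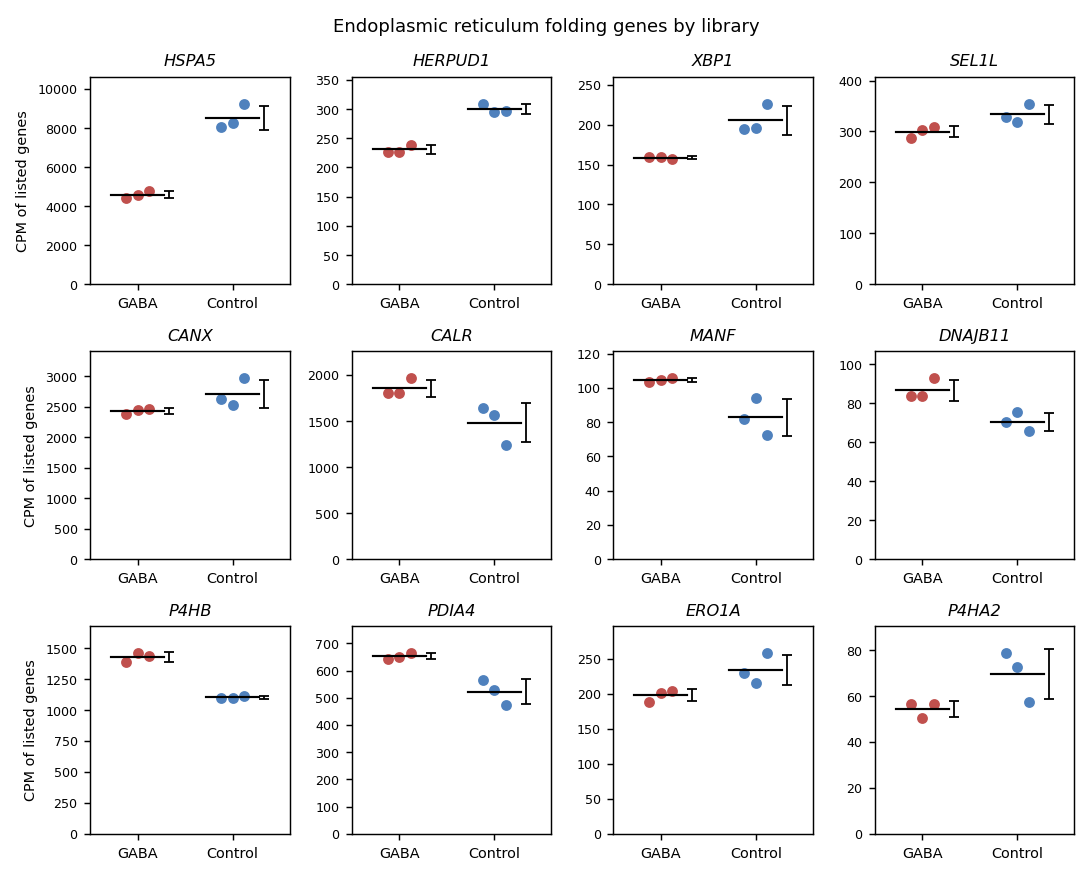
CPM of the listed genes (y axis, from 0) in each GABA (red) and control (blue) library for 12 ER folding genes, with the mean as a line and the SD (n = 3) as a bar beside it. HSPA5 at 4439 to 4766 CPM in GABA libraries lies furthest below its control values of 8060 to 9244 CPM, while CALR, MANF, DNAJB11, P4HB and PDIA4 lie above theirs.

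Promoters were searched for the ER stress response element (ERSE), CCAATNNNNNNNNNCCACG, which NF-Y and ATF6 or XBP1 bind, on both strands of the 250 bases before each RefSeq gene start (GRCh38.p14). Of the 52 genes, 46 have such a window. The element was found in 5 of them, HSPA5, XBP1, CANX, CALR and ERO1B, and in 0.074% of the 35116 windows of all genes. Among these 5, HSPA5 (-0.89), ERO1B (-0.40), XBP1 (-0.37) and CANX (-0.16) were lower in GABA cells and CALR (0.32) was higher. Among all 52 genes, matched or not, 67.3% were lower, as were 51.2% of all tested genes. The related ERSE-II, ATTGGNCCACG, which ends in the same CCACG, was found in HERPUD1 alone of the 46 genes and in 0.0513% of all windows. Neither pattern was found before MANF, DNAJB11, P4HB or PDIA4, and a match or its lack is a description of these letters only. The windows of HSPA5, of XBP1 and HERPUD1, which also fell, and of CALR, which rose, are shown 5′ to 3′ on the gene's strand, with the matched element in capitals.
HSPA5 (chr9:125241344-125241593, minus strand): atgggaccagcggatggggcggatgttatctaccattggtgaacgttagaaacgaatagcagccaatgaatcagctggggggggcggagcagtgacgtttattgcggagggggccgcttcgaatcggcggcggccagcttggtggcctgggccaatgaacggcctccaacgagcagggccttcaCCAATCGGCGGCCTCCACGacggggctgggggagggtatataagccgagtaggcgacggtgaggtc
XBP1 (chr22:28800570-28800819, minus strand): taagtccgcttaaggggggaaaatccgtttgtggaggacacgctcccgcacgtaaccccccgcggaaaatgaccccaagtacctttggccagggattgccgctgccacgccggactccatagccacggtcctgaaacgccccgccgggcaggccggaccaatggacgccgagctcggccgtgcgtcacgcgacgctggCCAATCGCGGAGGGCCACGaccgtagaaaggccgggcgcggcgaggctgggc
HERPUD1 (chr16:56931892-56932141, plus strand): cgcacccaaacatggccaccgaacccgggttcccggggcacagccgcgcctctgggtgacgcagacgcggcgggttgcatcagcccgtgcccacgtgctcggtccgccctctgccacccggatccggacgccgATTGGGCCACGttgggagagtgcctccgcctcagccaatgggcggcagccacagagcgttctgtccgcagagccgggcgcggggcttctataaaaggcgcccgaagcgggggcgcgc
CALR (chr19:12938359-12938608, plus strand): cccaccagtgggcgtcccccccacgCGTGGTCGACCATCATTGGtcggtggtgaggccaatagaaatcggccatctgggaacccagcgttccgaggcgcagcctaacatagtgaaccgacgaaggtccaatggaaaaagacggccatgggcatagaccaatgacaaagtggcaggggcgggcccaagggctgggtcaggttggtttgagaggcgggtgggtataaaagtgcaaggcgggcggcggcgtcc
The element ended 47 bases before the start in HSPA5 and 33 in XBP1, lay 106 bases before it in HERPUD1, and lay on the opposite strand and 206 bases before it in CALR.

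In the cytosol, the abundant chaperones HSPA8 and HSP90AB1 differed by little, and their partners went both ways. HSPA8 (HSC70), the constitutive HSP70, had 1012, 1095 and 1272 CPM in GABA libraries, against 1355, 1166 and 1295 CPM in control libraries. Its groups overlapped, and it was the 1 gene that did not pass (-0.18 ± 0.09, adjusted p = 0.061). It passed in 3 of 14 alternative settings, all 3 with the same direction. HSP90AB1, the constitutive HSP90, had 3262, 3303 and 3394 CPM in GABA libraries, against 3745, 3432 and 3789 CPM in control libraries, lower without overlap but by little (-0.14 ± 0.06, adjusted p = 0.043), and it passed in 6 of 14 settings. STIP1 (HOP), which hands clients from HSP70 to HSP90, had 556, 547 and 551 CPM in GABA libraries, against 502, 471 and 418 CPM in control libraries and rose (0.25 ± 0.07, adjusted p = 0.0073; 0.18 without control replicate 3). Counts of HSP90AB1 per STIP1 count were 5.86, 6.04 and 6.16 in GABA libraries and 7.46, 7.29 and 9.07 in control libraries. The stress-inducible HSPA1A, HSPA1B, HSPH1 and HSP90AA1 are not listed, nor is any of the 7 annotated small heat shock proteins.

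The other listed HSP70 relatives of the cytosol, all rarer than HSPA8, had larger log2 fold changes in absolute value. Mostly changed genes are listed, and the empty band around a log2 fold change of 0 is wider at low CPM. A rare relative with a small change may therefore not be listed. Whether rarer HSP70 genes changed more than abundant ones could thus not be tested here. HSPA14, the HSP70 partner of the ribosome-associated complex, had 19.0, 19.8 and 20.5 CPM in GABA libraries, against 37.8, 31.7 and 42.9 CPM in control libraries, lower in GABA cells without overlap (-0.92 ± 0.13, adjusted p = 1.6e-04). Of its exon length, 17.4% overlaps other genes, one of them a second annotated gene of the same name. HSPA4L, an HSP110-type exchange factor, had 69.5, 63.8 and 66.4 CPM in GABA libraries, against 96.4, 80.2 and 96.3 CPM in control libraries and was lower (-0.45 ± 0.10, adjusted p = 0.0017). HSPA12A, a distant relative, had 8.86, 6.59 and 9.68 CPM in GABA libraries, against 16.3, 13.9 and 13.7 CPM in control libraries, also lower (-0.80 ± 0.18, adjusted p = 0.0025). HSPA2, best known from testis, was the one HSP70 gene that rose, at 8.58 ± 2.05 CPM in GABA cells and 5.17 ± 0.627 CPM in control cells (SD, n = 3 each; 0.73 ± 0.23), and it did not pass without GABA replicate 3 (adjusted p = 0.053).

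Of the 10 listed J proteins of cytosol and nucleus, 4 rose and 6 fell, by 0.18 to 0.49 in absolute log2 fold change. DNAJB1 (HSP40), the classical HSF1-induced partner of HSP70, had 680.2, 696 and 672 CPM in GABA libraries, against 572, 606 and 571 CPM in control libraries, higher without overlap (0.23 ± 0.06, adjusted p = 0.0043). DNAJB4 (log2 fold change 0.27) and DNAJB5 (0.49), close relatives of DNAJB1, and DNAJC9 (0.27), a histone chaperone with 29.1% of its exon length shared with other genes, also rose. DNAJB6, which keeps polyglutamine proteins from aggregating, had 1219, 1170.0 and 1135 CPM in GABA libraries, against 1356, 1398 and 1339 CPM in control libraries and fell (-0.22 ± 0.06, adjusted p = 0.0052). DNAJC7, which carries a J domain and binds both HSP70 and HSP90, had 278, 277 and 271 CPM in GABA libraries, against 322, 320.1 and 353 CPM in control libraries, again lower (-0.27 ± 0.07, adjusted p = 0.0036). The other falls were those of DNAJC24 (-0.33), of diphthamide synthesis, DNAJC6 (-0.21), the clathrin uncoating factor auxilin, and the general HSP70 partners DNAJA2 (-0.19) and DNAJA1 (-0.18). DNAJA1 overlapped between the groups, and DNAJA1 and DNAJA2 each passed in 8 of 14 alternative settings.

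BAG proteins release ADP from HSP70, and the 4 listed cochaperones of this group split evenly. BAG1, which couples HSP70 to the proteasome, had 118, 118 and 110.0 CPM in GABA libraries, against 76.7, 78.5 and 67.2 CPM in control libraries. The groups did not overlap, and its adjusted p was the smallest of the 16 genes that rose (0.64 ± 0.09, adjusted p = 1.1e-04). BAG6, which guards new membrane proteins and directs mislocalised ones to degradation, had 824, 825 and 848 CPM in GABA libraries, against 709, 719 and 609 CPM in control libraries and rose (0.29 ± 0.07, adjusted p = 0.003). BAG2, an inhibitor of the ubiquitin ligase CHIP, had 72.7, 65.8 and 76.0 CPM in GABA libraries, against 94.2, 100 and 95.4 CPM in control libraries and fell (-0.43 ± 0.09, adjusted p = 0.0012), with 44.2% of its exon length shared with other genes. HSPBAP1, a protein that binds the small heat shock protein HSPB1, had a log2 fold change of -0.28, and did not pass at -0.18 without control replicate 3 (adjusted p = 0.079). BAG3, BAG4 and BAG5 are not listed.

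The heat shock element (HSE), which HSF1 binds as repeats of GAA and its complement, was searched as GAANNTTCNNGAA on both strands of the same windows. It was found in HSPA8, HSP90AB1, HSPD1 and DNAJB6, 4 of 46 genes, and in 0.441% of all windows. These 4 genes had log2 fold changes of -0.18 (not past the threshold), -0.14, -0.19 and -0.22. Among all 52 genes, matched or not, 35 were lower. DNAJB1 and STIP1, which rose, held no such match in these windows, and a match or its lack again only describes these letters. The windows of the 4 genes are shown 5′ to 3′ on the gene's strand (RefSeq, GRCh38.p14) with each match in capitals, where 2 overlapping matches run together in HSPD1.
HSPA8 (chr11:123062137-123062386, minus strand): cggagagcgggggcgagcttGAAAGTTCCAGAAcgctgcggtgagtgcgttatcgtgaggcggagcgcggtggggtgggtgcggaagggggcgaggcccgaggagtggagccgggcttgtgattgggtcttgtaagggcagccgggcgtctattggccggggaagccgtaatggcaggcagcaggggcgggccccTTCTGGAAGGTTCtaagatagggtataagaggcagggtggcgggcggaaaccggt
HSP90AB1 (chr6:44247693-44247942, plus strand): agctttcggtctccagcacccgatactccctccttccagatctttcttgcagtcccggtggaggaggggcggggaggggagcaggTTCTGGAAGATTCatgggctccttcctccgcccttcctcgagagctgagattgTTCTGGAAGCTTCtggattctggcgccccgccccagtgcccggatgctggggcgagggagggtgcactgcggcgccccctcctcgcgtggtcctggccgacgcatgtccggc
HSPD1 (chr2:197499841-197500090, minus strand): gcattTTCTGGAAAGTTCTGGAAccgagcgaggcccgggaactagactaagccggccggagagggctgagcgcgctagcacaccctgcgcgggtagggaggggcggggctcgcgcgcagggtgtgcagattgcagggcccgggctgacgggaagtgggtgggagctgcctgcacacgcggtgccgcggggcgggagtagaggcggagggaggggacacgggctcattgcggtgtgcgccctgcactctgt
DNAJB6 (chr7:157336754-157337003, plus strand): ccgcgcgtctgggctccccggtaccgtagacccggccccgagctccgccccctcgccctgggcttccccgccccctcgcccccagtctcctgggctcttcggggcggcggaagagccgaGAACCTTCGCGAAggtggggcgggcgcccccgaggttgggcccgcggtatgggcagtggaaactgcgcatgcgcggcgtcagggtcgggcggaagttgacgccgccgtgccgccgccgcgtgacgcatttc
HSPA8 and HSP90AB1 each hold 2 separate matches, the nearest 42 and 99 bases before the start, the match of DNAJB6 lies 118 bases before it, and those of HSPD1 end 227 bases before it.

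Of the 10 annotated genes of the TRiC/CCT chaperonin group, 3 are listed, and the other ring subunits are not. CCT7, the eta subunit, had 1102, 1104 and 1019 CPM in GABA libraries, against 943, 988 and 868 CPM in control libraries and was higher (0.20 ± 0.07, adjusted p = 0.012), but did not pass without GABA replicate 1 or 2. CCT6A, the zeta subunit, had 689, 689.9 and 628 CPM in GABA libraries, against 713, 759 and 749.9 CPM in control libraries and was lower (-0.15 ± 0.06, adjusted p = 0.037), and passed in 6 of 14 settings. Per CCT7 count, CCT6A had 0.626, 0.625 and 0.617 counts in GABA libraries and 0.757, 0.768 and 0.864 in control libraries, so these subunits of one ring changed unequally at the RNA level. CCT6B, a zeta subunit known from testis, had 9.76, 9.69 and 10.3 CPM in GABA libraries, against 3.16, 5.83 and 5.21 CPM in control libraries. Its rise was the largest of the 52 genes (1.07 ± 0.23, adjusted p = 0.0017), at a far lower level than CCT6A in CPM per kilobase of exon (2.29 in GABA cells and 1.09 in control cells, against 172 in GABA cells and 189.9 in control cells).

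All 4 listed mitochondrial chaperones were lower, with log2 fold changes from -0.32 to -0.13, where 51.2% of all tested genes were lower. HSPD1 (HSP60), the chamber that folds imported proteins, had 1347, 1399 and 1331 CPM in GABA libraries, against 1608, 1415 and 1622 CPM in control libraries (-0.19 ± 0.07, adjusted p = 0.017). Its lid HSPE1 (HSP10) had 37.0, 30.9 and 38.5 CPM in GABA libraries, against 47.3, 44.5 and 39.7 CPM in control libraries (-0.31 ± 0.12, adjusted p = 0.025). Of the exon length of HSPE1, 23.9% overlaps other genes, among them the far more abundant HSPD1, so part of its reads is uncertain. DNAJC19, a J protein of the inner membrane import motor, had 55.1, 52.8 and 52.8 CPM in GABA libraries, against 66.2, 58.8 and 76.2 CPM in control libraries (-0.32 ± 0.11, adjusted p = 0.013). HSPA9 (mortalin), the HSP70 of the same motor, averaged 1716 ± 29.9 CPM in GABA cells and 1879 ± 64.8 CPM in control cells (SD, n = 3 each), a log2 fold change of -0.13. None of the 4 overlapped between the groups, nor did 92.5% of all tested genes. HSPA9 passed in 6 of 14 settings, HSPD1 in 9, HSPE1 in 11 and DNAJC19 in all 14, and DESeq2 called only DNAJC19. Mitochondrially encoded transcripts also held less of the counts, at 6.66% to 7.04% in GABA libraries and 7.14% to 9.11% in control libraries, and their part in these falls was not tested. GENCODE annotates 17 pseudogenes named for HSPD1, 26 for HSPE1, 17 for HSPA8 and 9 for DNAJC19, so reads of these genes can be shared with copies. One copy, HSPD1P1, is listed and was lower (-0.45), as were DNAJB6P1 (-0.76) and PDIA3P1 (-0.23), which the rule left out. DNAJB6P1 overlapped between the groups and did not pass without control replicate 3 (adjusted p = 0.14), and PDIA3P1 passed in 7 of 14 settings.

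**Figure D5:**
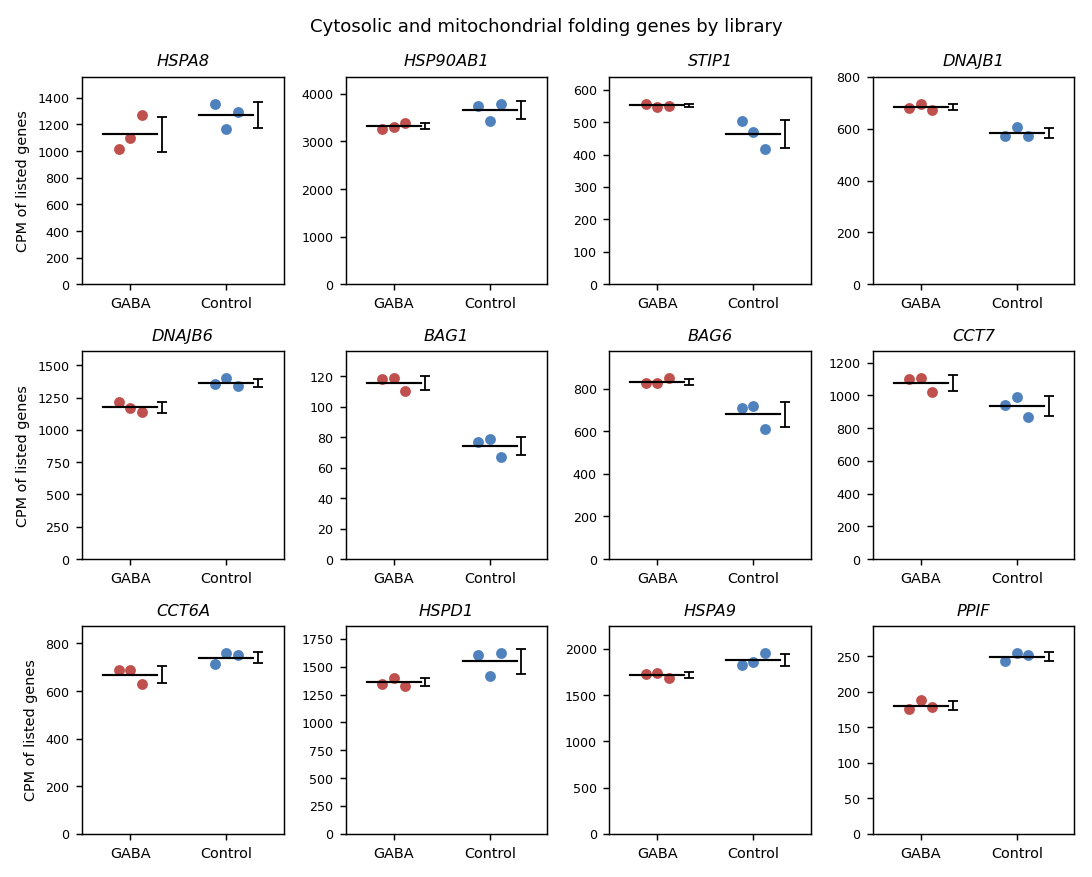
CPM of the listed genes (y axis, from 0) in each GABA (red) and control (blue) library for 12 cytosolic and mitochondrial folding genes, with the mean as a line and the SD (n = 3) as a bar beside it. BAG1 and PPIF show the widest gaps relative to their levels, whereas HSPA8 overlaps between the groups at 1012 to 1272 CPM in GABA and 1166 to 1355 CPM in control libraries.

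Prolyl isomerases, which turn the bond before proline and include the targets of FK506 and cyclosporin, were lower in 7 of 8 cases, against 51.2% of all tested genes. DESeq2 called 5 of the 8 lower, against 39.2% of all tested genes. Among the cyclophilins, PPIF (cyclophilin D of the mitochondrial matrix, which regulates the permeability pore) had 175, 188 and 178 CPM in GABA libraries, against 242, 254 and 252 CPM in control libraries. Its groups were tight and far apart (-0.47 ± 0.06, adjusted p = 1.2e-04). PPIC, of the secretory pathway, had 48.0, 51.6 and 45.6 CPM in GABA libraries, against 57.7, 56.6 and 65.5 CPM in control libraries (-0.31 ± 0.10, adjusted p = 0.012), but missed without GABA replicate 3. PPIE, a spliceosome component, had 161, 153 and 155 CPM in GABA libraries, against 182, 171 and 180.0 CPM in control libraries (-0.18 ± 0.07, adjusted p = 0.02) and passed in 9 of 14 settings. Of the FKBP genes, FKBP9 of the ER had 99.7, 96.1 and 98.9 CPM in GABA libraries, against 135, 129.9 and 110.1 CPM in control libraries and fell (-0.35 ± 0.09, adjusted p = 0.004). FKBP11, also of the secretory pathway, had 32.5, 30.4 and 32.7 CPM in GABA libraries, against 43.6, 39.9 and 40.4 CPM in control libraries (-0.37 ± 0.10, adjusted p = 0.0058). FKBPL, a partner of HSP90, was the exception, with 22.9, 22.6 and 21.0 CPM in GABA libraries, against 17.5, 13.3 and 13.9 CPM in control libraries (0.57 ± 0.14, adjusted p = 0.004). FKBP3, a nuclear form, had a log2 fold change of -0.25, with 28.9% of its exon length shared with other genes. FKBP1A (FKBP12), the receptor of rapamycin, had one of -0.21, and -0.12 without control replicate 3. Both missed the threshold without GABA replicate 2 or 3.

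Genes of protein quality control outside the naming rule were read from 6 lists of 82 genes, of which 22 are listed, 8 higher (36.4%) and 14 lower (63.6%), against 47.6% and 51.2% of all tested genes. DESeq2 called 9 lower (40.9%, against 39.2% of all tested genes), and without GABA replicate 2 only 4 were higher and 9 lower, while 7 were lower without GABA replicate 1 or control replicate 1. Their median log2 fold change was -0.16. In unfolded protein response signalling, 6 of 9 fell (66.7%) and 3 rose (33.3%), against 51.2% and 47.6% of all tested genes. DDIT3 (CHOP), the late stress factor, had 266 ± 5.78 CPM in GABA cells and 472 ± 21.8 CPM in control cells (-0.83 ± 0.06; SD and SE, n = 3 each), with 39.6% of its exon length shared with other genes. TRIB3, a CHOP target, had 677 ± 30.5 CPM in GABA cells and 863 ± 23.3 CPM in control cells (-0.35 ± 0.06). The next 4 genes are named for their roles, after their values were seen. ATF4, the factor upstream of both, had a log2 fold change of -0.15, and ATF3 one of -0.49. ATF4 passed in 5 of 14 alternative settings, and ATF3 missed without control replicate 3 (adjusted p = 0.093). ATF6B, a relative of ATF6, went the other way at 0.29, as did RTCB (0.20), the ligase that completes XBP1 splicing, which passed in 12 of 14 settings. Of the other genes in this list, also named after their values were seen, MBTPS2 (-0.35) fell and CREB3 (0.30) rose. Both passed in all 14 alternative settings. NFE2L2 fell, with a log2 fold change of -0.34, and -0.17 without control replicate 3. Of the 4 listed ER folding enzymes, 2 rose and 2 fell. The sulfhydryl oxidase QSOX1 had 2349.9 ± 37.2 CPM in GABA cells and 1686 ± 122 CPM in control cells and rose (0.48 ± 0.06), as did PRKCSH (0.24). TXNDC12 (-0.42), with 49.7% of its exon length shared with other genes, and SERPINH1 (-0.16) fell. Of the 2 listed mitochondrial genes, the disaggregase CLPB rose by 0.46 and GRPEL2 fell (-0.22). TXNDC12 and GRPEL2 overlapped between the groups. DDIT3, QSOX1, TRIB3 and CLPB had the 4 smallest p-values of the 22.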

How the data were processed

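RNA of 6 Huh7 cultures was sequenced. The authors deposited raw read counts per Ensembl gene for each library. CASAVA 1.8, Bowtie 0.12.2 and the hg38 build are named in the submitters' processing notes. The counting program, annotation, strand setting and choice of the 5187 listed genes are not given in the sources used here, so reads of overlapping genes and near-identical copies are uncertain. Of the IDs, 5173 were named by a supplied symbol table and 14 by GENCODE 29. Gene type, position and merged exon length came from GENCODE 29, and promoter windows from RefSeq (GRCh38.p14).

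Counts were tested with edgeR 4.0.16 in R 4.3.3 (filterByExpr with minimum count 10 and total 15, TMM, robust quasi-likelihood F test, Benjamini-Hochberg over all 4981 tested genes, threshold 0.05). SE is the fold change divided by the root of F. The filter removed 206 genes. Other scalings and filters, DESeq2 1.42.0, limma-voom (3.58.1), the replicate block and leaving out each library were alternatives. Scripts were tested on simulated data. Tables were made with pandas 2.3.3 (Python 3.11.15), figures with matplotlib 3.10.9.

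The genes, their role groups and the other lists were chosen with earlier results of these data known. In each role group, the 3 genes with the smallest p are given in every library, as are those of 21 preset genes that are listed, 37 genes in all. Some others are named with their values.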

Additional observations from a re-analysis of the deposited data

How the results depend on the processing

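No chaperone gene changed sign in any of the 14 alternatives, and 30 of the 51 called genes, 14 higher and 16 lower, passed in all of them. All 14 were scaled on the same preselected genes, so they cannot test where a log2 fold change of 0 should lie. Over the 37 genes described in full, 465 of 518 values kept their side of the threshold, 50 lost it, 3 gained it and 0 reversed. Most calls lost were small falls, and the rises of CCT7 and HSPA2 were lost without single GABA libraries. DESeq2 left 22 of 35 falls, with 3 J proteins and 1 mitochondrial chaperone lower. DESeq2 size factors in edgeR left 2 mitochondrial chaperones lower. Both left 1 BAG cochaperone lower. Under both, under library size only and under the replicate block, 0 genes of the HSP90 and of the TRiC/CCT groups and 1 ER lumen chaperone (HSPA5) remained lower. The first 3 of these 4 settings gave 9 of 14 falls among other quality control genes. Scaling moved the median of all genes by at most 0.04. The cause of these losses was not tested.

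With 1 library left out, changed genes numbered 4025 to 4735 of all listed genes, and the chaperone genes 15 to 16 higher and 21 to 35 lower. Higher HSP70 genes ranged from 0 to 1 and higher TRiC/CCT genes from 1 to 2. Lower genes ranged from 0 to 1 in the HSP90 and TRiC/CCT groups, 1 to 2 in the ER lumen group, 2 to 4 in the disulfide group, 1 to 4 in mitochondria, 1 to 2 among BAG cochaperones, 2 to 4 among FKBP genes and 1 to 3 among cyclophilins. Other quality control genes ranged from 4 to 8 higher and 7 to 11 lower. The replicate block gave 4823 changed genes, with 16 chaperone genes higher and 31 lower. Same-numbered libraries shared no deviation (correlations 0.000333, -0.089 and -0.0363), so the numbers were not used as pairs. The files hold few unchanged genes, and the depth of the whole libraries is unknown.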
